A study of Mus musculus with 2 samples.

Results

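The miRNAs described here are those of 6 mouse hairpins that reach Dicer without cleavage by Drosha, namely Mir320, Mir484, Mir877, Mir702, Mir1224 and Mir1981. They were chosen by name. A read was counted for one of them when its whole sequence matched the hairpin perfectly in the GENCODE M21 annotation, which holds 1174 named miRNA hairpins in all. The 2 arms of a hairpin, 5p and 3p, were counted separately. Of the 12 arms of these 6 hairpins, 11 had reads, and 6 counted as detected because either library held at least 1 RPM of them (RPM, reads per 1000000 clean reads). Among all hairpins, with numbered copies of 1 miRNA merged, 1144 arms had reads and 510 were detected.

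Small RNA was sequenced from J1 mouse embryonic stem cells (mESCs), an established cell line, grown on gelatin with Knockout Serum Replacement and LIF, a cytokine that sustains self-renewal. The PD cells received 1 μM PD0325901, an inhibitor of MEK that blocks signaling to ERK1/2, for 24 h. The control cells received DMSO, the solvent, for the same 24 h. No other allele or agent separated the groups, and LIF was present in both. RNA from 3 independent experiments was pooled for each treatment, so that 1 library stood for each group (no replicates). Each interval and p-value below therefore covers the sampling of reads in these libraries and not the variation between cultures, pools or libraries.

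Most miRNAs are cut from a long transcript by the nuclear enzyme Drosha with its partner DGCR8, and the released hairpin is then cut by Dicer. Some hairpins skip the first step. A mirtron is a short intron that folds into a hairpin once the spliceosome has released it and its lariat has been opened, so that the splice sites set the ends of the hairpin. A capped hairpin is itself a short transcript of RNA polymerase II, whose start forms the 5′ end of the hairpin and carries a cap. Both kinds are used to separate Drosha and DGCR8 from Dicer in mESCs, because they persist in cells that lack DGCR8. Mir320 and Mir484 are capped hairpins. Mir877, Mir702, Mir1224 and Mir1981 are mirtrons.

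The sequences below show where the mirtrons begin and which seed each miRNA carries. They were taken from RefSeq on GRCm38.p6, where 5 of the 6 hairpins were matched. Mir320 is named only. Each mature miRNA is printed 5′ to 3′ with its seed, bases 2 to 8, in capitals.
miR-484: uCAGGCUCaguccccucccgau
miR-877-5p: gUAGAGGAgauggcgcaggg
miR-702-5p: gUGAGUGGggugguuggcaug
miR-1224-5p: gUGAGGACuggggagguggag
miR-1981-5p: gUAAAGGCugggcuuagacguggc
The 4 mirtron 5p miRNAs began with GU, the bases at which an intron begins, so that the second base of the intron was the first base of the seed. The 5 seeds differed from one another, and no detected arm of another hairpin had the same bases 2 to 8 as a member arm. The only other arm with a shared seed was miR-7070-3p, which had the bases 2 to 8 of miR-484 and 0 reads in the control and 1 read in the PD library.

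The whole hairpin is printed for the 3 mirtrons whose annotated hairpin is exactly 1 intron, with the first and the last 2 bases of the intron in capitals.
Mir877: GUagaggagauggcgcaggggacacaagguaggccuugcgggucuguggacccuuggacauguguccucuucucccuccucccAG
Mir1224: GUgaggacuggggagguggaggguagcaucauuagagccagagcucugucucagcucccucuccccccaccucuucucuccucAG
Mir1981: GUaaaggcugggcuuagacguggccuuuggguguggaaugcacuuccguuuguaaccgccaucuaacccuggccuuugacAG
On GRCm38, Mir877 lay on the minus strand at chr17:35960730-35960814 and was an entire intron of 85 nt of Abcf1, which encodes a protein of the ABC family that acts in translation. Mir1224 lay on the plus strand at chr16:20604452-20604536 and was an entire intron of 85 nt of Vwa5b2. Mir1981 lay on the minus strand at chr1:184822407-184822488 and was an entire intron of 82 nt of Marc2, which encodes a mitochondrial reductase. Mir702 lay on the plus strand at chr5:136991433-136991541. Its hairpin began 9 nt before an intron of 102 nt of Plod3, which encodes a lysyl hydroxylase that modifies collagen, and ended 2 nt before the end of that intron (chr5:136991442-136991543). Mir484 lay on the plus strand at chr16:14159626-14159692, without a gene on its own strand and with Marf1 on the opposite strand. Mir320 lay on the plus strand at chr14:70443510-70443591 outside other genes, with its start 63 nt from that of Polr3d on the minus strand, which encodes a subunit of RNA polymerase III.

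Clean reads numbered 18870345 in the control and 20944808 in PD, of which 11.6% and 10.1% matched a miRNA hairpin. A floor of 3 reads equaled 0.159 RPM in the former and 0.143 RPM in the latter. The sizes of the reads differed between the libraries. The share of reads between 20 and 24 nt was 63.0% in the control and 52.0% in PD, and that between 28 and 32 nt was 7.11% and 16.96%. The share of hairpin reads among all reads thus moved with the treatment, and every fold change per clean read contains this shift. The labelled cell type was checked by the miR-290-295 cluster, the main miRNA cluster of mESCs. Its miR-293-3p had 217926 reads in the control and 201493 in the PD library, and its miR-294-3p had 54649 and 48983.

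The 6 hairpins together had 78819 reads in the control and 69115 in the PD library, which was 3.61% and 3.27% of all hairpin reads. A single arm, miR-320-3p, made up 92.2% of these reads in the control and 90.5% in the PD library. Levels below are reads of each library and their RPM, and reads are not molecules.

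Of the capped hairpins, miR-320-3p had 72653 reads in the control (3850 RPM) and 62571 in the PD library (2987 RPM). It ranked at place 7 of all arms in both libraries. miR-484-5p had 137 reads in the control (7.26 RPM) and 153 in the PD library (7.30 RPM). The 2 capped hairpins thus stood at the top and near the lower end of the levels among these miRNAs.

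Among the mirtrons, miR-1981-5p had 4258 reads in the control (226 RPM) and 4568 in the PD library (218 RPM), at places 69 and 64 of all arms. miR-877-5p had 1611 reads in the control (85.4 RPM) and 1646 in the PD library (78.6 RPM). The other 2 mirtrons were below 10 RPM. miR-1224-5p had 70 and 81 reads (3.71 and 3.87 RPM), and miR-702-5p had 69 and 70 reads (3.66 and 3.34 RPM).

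In both libraries the order was miR-320-3p, miR-1981-5p, miR-877-5p and miR-484-5p, with exact binomial 95% intervals that did not overlap. The 2 lowest arms could not be ordered. In the control library miR-1224-5p had an interval of 2.89 to 4.69 RPM and miR-702-5p one of 2.84 to 4.63 RPM. Their intervals in the PD library overlapped likewise, with 3.07 to 4.81 RPM for miR-1224-5p and 2.61 to 4.22 RPM for miR-702-5p.

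The opposite arms were all below 1 RPM. miR-1981-3p had 9 reads in the control and 12 in the PD library. miR-484-3p had 6 and 1, miR-877-3p had 2 and 2, and miR-702-3p had 1 and 3. miR-320-5p had 0 reads in the control and 1 in the PD library, and miR-1224-3p had 0 in both, which allows levels up to the floor given above.

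**Figure D1:**
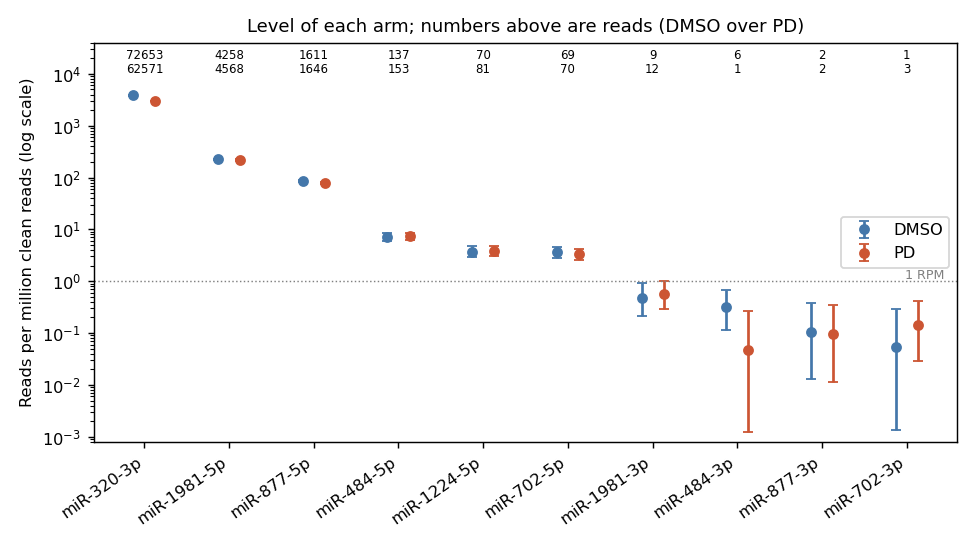
RPM (log axis) of the arms with reads in both libraries, in the DMSO and PD libraries. Bars are exact binomial 95% intervals and the numbers above are read counts, from 72653 and 62571 for miR-320-3p down to 1 and 3 for miR-702-3p. The 6 arms treated as detected lie above the dotted line at 1 RPM, and the points of both libraries lie close together in each of them.

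The reads came almost wholly from 1 arm of each hairpin. In Mir320 the 3p arm held 100% of the arm reads in the control and 99.998% in the PD library. An adapter was ligated to each end of the RNA before sequencing. Whether a capped 5′ end took the adapter was not tested, so these shares are of sequenced reads only. In the other 5 hairpins the 5p arm led, with 99.8% and 99.7% of the reads for Mir1981, 99.9% and 99.9% for Mir877, and 100% and 100% for Mir1224. All 6 had over 95% in the leading arm in both libraries, while 55.5% of 335 other miRNAs did so in the control, whose median was 96.8%. The 5p arm led in 51.6% of those other miRNAs.

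The share of the leading arm moved most in Mir484, from 95.8% in the control (95% Wilson interval 91.1 to 98.1) to 99.4% in the PD library (96.4 to 99.9), which rests on 6 and 1 reads of the 3p arm. By Fisher's exact test on the reads, with Benjamini-Hochberg adjustment over 341 miRNAs, the adjusted p for Mir484 was 0.295. None of the 6 hairpins passed an adjusted p of 0.05, compared with 11.7% of all miRNAs tested. Mir702 and Mir1224 had at most 3 reads of the opposite arm in a library, so that a small shift was not detectable there.

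Reads outside the arms were almost absent. Mir320 had 3 such reads in the control and 5 in the PD library, Mir877 had 0 and 2, and the other hairpins had 0. The loops of these hairpins were therefore below the floor, or near it, in both libraries.

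**Figure D2:**
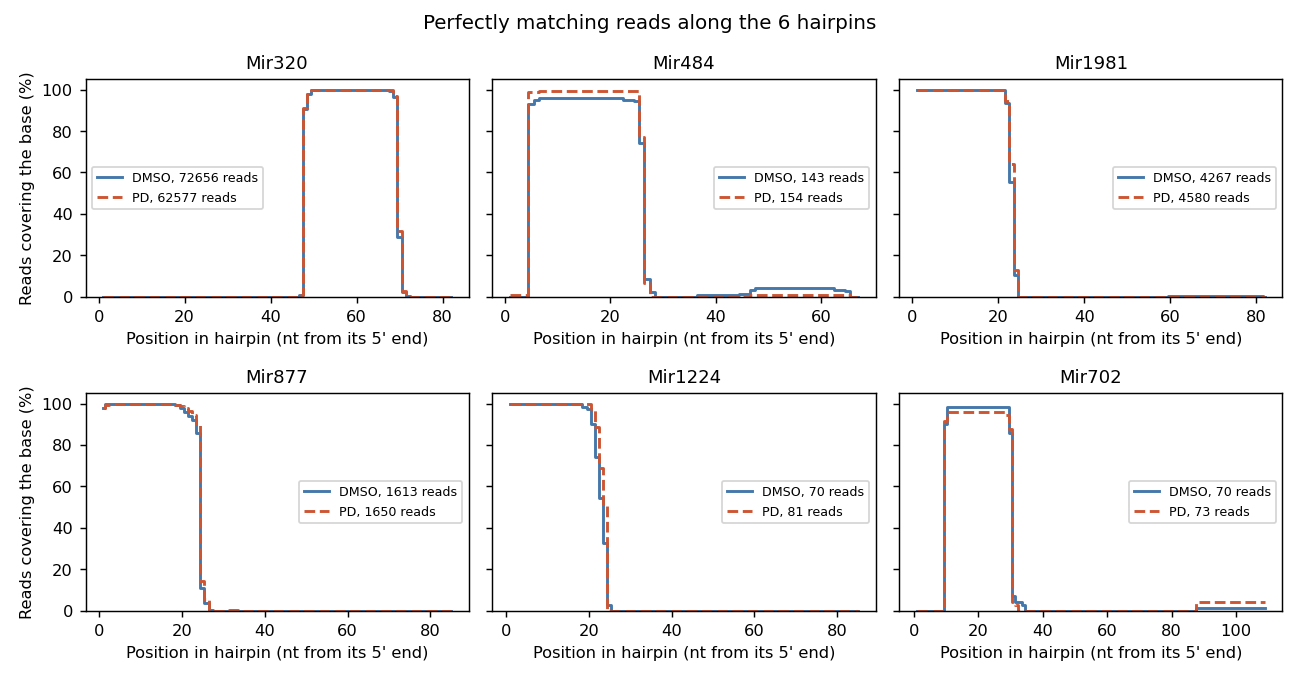
Percent of the perfectly matching reads of each hairpin that cover each base, from the 5′ end of the hairpin, in the DMSO (solid) and PD (dashed) libraries. The reads of Mir320 lie on the 3p arm and those of the other 5 hairpins on the 5p arm, starting at base 1 in Mir877, Mir1224 and Mir1981, and the lines of both libraries part along the arms of Mir484 and Mir702 and at the 3′ ends, as at base 24 of Mir1224 with 32.9% in DMSO and 50.6% in PD.

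The 5′ ends of the mirtron reads coincided with the splice sites. In all 4 mirtrons the most frequent 5p tag began at base 1 of the intron. The hairpin annotation of Mir877, Mir1224 and Mir1981 starts at that base, so reads that start upstream of it could not be matched there. The hairpin of Mir702 holds 9 bases of the exon before the intron, and 0 reads of either library began in them. Of its 5p reads, 63 in the control and 67 in the PD library began at base 1 of the intron, and 6 and 3 began at base 2. On the 3p side, where counts were low, the most frequent tag ended at the last base of the intron in Mir877, 1 base before it in Mir1981 and 2 bases before it in Mir702. These ends are limited by the annotation, since the hairpin of Mir702 ends 2 bases before the intron does and those of Mir877 and Mir1981 end with it, and reads past the hairpin could not be matched.

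The 5′ end sets the seed, so its precision was compared among these miRNAs as the share of reads that begin where the most frequent tag does. In Mir877, Mir1224 and Mir1981 the hairpin begins at the 5′ end of that tag, so only later starts could lower their shares. In miR-1224-5p, 100% of the reads in both libraries had the 5′ end of the most frequent tag. In miR-1981-5p the shares were 99.98% and 100%, in miR-877-5p 98.1% and 98.2%, and in miR-484-5p 97.1% and 98.7%. In miR-702-5p, the mirtron whose hairpin extends upstream of the intron, 91.3% and 95.7% had it. The lowest shares were those of miR-320-3p, with 89.7% in the control and 90.1% in the PD library. Another 7.48% of its control reads and 7.14% of its PD reads began 1 base later, and 2.10% and 1.97% began 2 bases later, which moves the seed by as many bases. Over 305 other arms with at least 100 reads in each library the median was 97.9%, with quartiles of 86.0% and 99.5%, so that miR-320-3p lay within the middle range of the other arms.

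The 3′ ends were less uniform, and the most frequent tags differed in length from the RefSeq entries printed above in 3 of 5 miRNAs. The most frequent tags of these 3, with the seed in capitals, were as follows.
miR-877-5p tag: gUAGAGGAgauggcgcaggggaca
miR-1224-5p tag: gUGAGGACuggggagguggagggu
miR-1981-5p tag: gUAAAGGCugggcuuagacgugg
The miR-877-5p tag was 24 nt long, against 20 nt in RefSeq, and had 1194 reads in the control and 1227 in the PD library. The tag of exactly the RefSeq length had only 30 and 17. For miR-1224-5p the tag was 24 nt long, against 21 nt in RefSeq, and had 21 and 41 reads, against 11 and 7 for the shorter form. For miR-1981-5p the tag was 23 nt long, against 24 nt in RefSeq, and had 1911 and 2327 reads, against 444 and 599 for the longer form. In miR-484-5p and miR-702-5p the most frequent tag equaled the RefSeq entry. The seed was the same in each pair of forms, since they differ at the 3′ end.

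Reads with the mature 5′ end were longer in the PD library for most of these miRNAs. In miR-1981-5p the 22 nt form went from 38.6% of the reads in the control (95% Wilson interval 37.2 to 40.1) to 30.6% in PD (29.3 to 31.98). The 23 nt form made up 44.9% in the control and 50.9% in the PD library, and the 24 nt form 10.4% and 13.1%. The mean length of miR-1981-5p was 0.12 nt larger in the PD library (95% interval 0.090 to 0.154).

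In miR-877-5p the form of 24 nt made up 75.5% and 75.9%, while that of 26 nt made up 3.67% in the control and 5.32% in the PD library. Its mean length was 0.16 nt larger in PD (95% interval 0.088 to 0.240). In miR-320-3p the 22 nt form made up 69.3% in the control and 67.0% in the PD library, and the 23 nt form 25.6% and 28.3%, with a mean length 0.050 nt larger in PD (95% interval 0.044 to 0.057). In miR-484-5p the difference was 0.006 nt with an interval from -0.140 to 0.151, which includes 0.

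Of the 4 member arms with at least 100 reads in each library, 3 had an interval above 0, beside 50.8% of all 309 arms with such depth. Among the other 305 arms, 82.0% had the larger mean length in PD, with a median difference of 0.072 nt and quartiles of 0.011 and 0.188 nt. Longer reads in PD were thus also seen in most other miRNAs. The shift of the whole library toward reads of 28 to 32 nt, given above, moved with it, and its part in the lengths was not tested. miR-1224-5p had fewer reads, and its 24 nt form held 21 of 70 control reads (95% Wilson interval 20.5% to 41.5%) and 41 of 81 PD reads (39.95% to 61.2%). The 21 nt form of miR-702-5p made up 85.7% and 91.0%, with overlapping intervals.

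**Figure D3:**
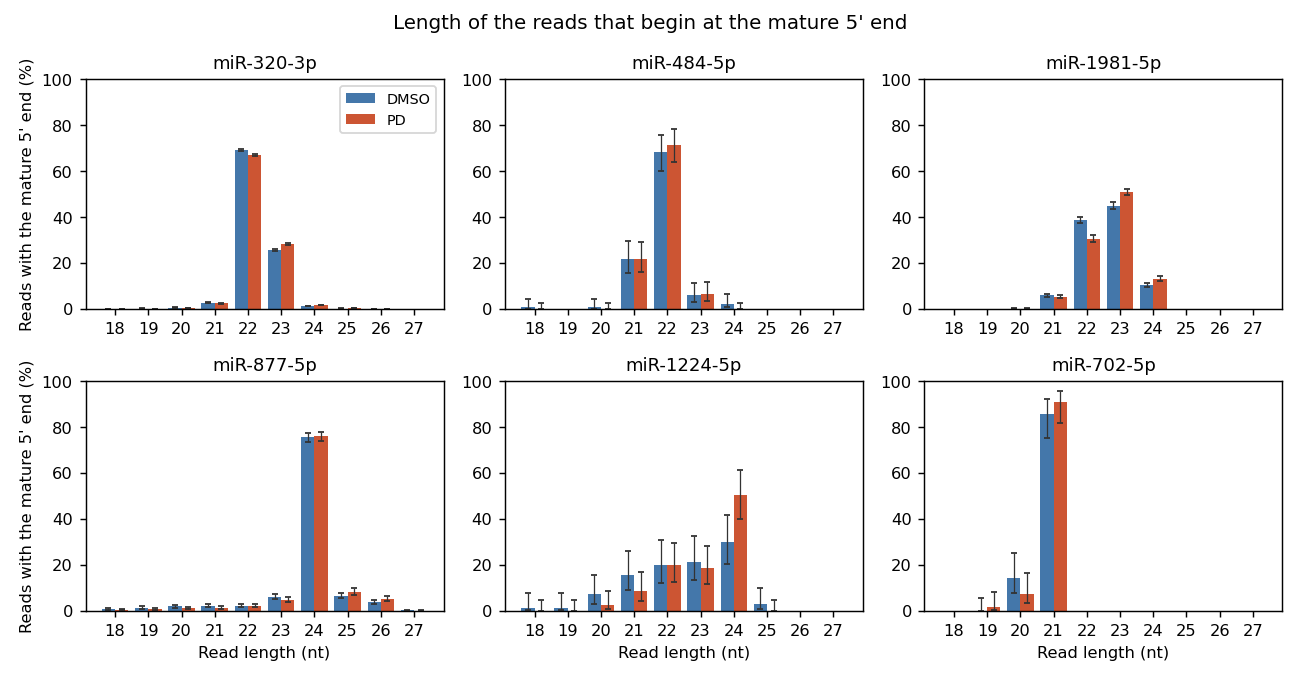
Length of the reads with the mature 5′ end as a percent of those reads, for the 6 detected arms in the DMSO and PD libraries, with 95% Wilson intervals. The most frequent length is 22 nt for miR-320-3p and miR-484-5p, 23 nt for miR-1981-5p, 24 nt for miR-877-5p and miR-1224-5p, and 21 nt for miR-702-5p, and the 22 nt form of miR-1981-5p is lower in PD.

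The question for the treatment is whether inhibition of MEK changed the level of miRNAs that do not pass through Drosha. The fold change is RPM in PD over RPM in the control, with a 95% interval from the exact binomial (Clopper-Pearson) interval of the reads. None of the 6 detected arms changed by 1.5-fold or more in either direction, beside 19.4% of all 510 detected arms. The fold changes ran from 0.776 to 1.04. With only tags identical to the most frequent tag, miR-1224-5p passed 1.5-fold, from 21 reads in the control and 41 in PD (fold change 1.76, 95% interval 1.02 to 3.13, exact binomial test, adjusted p = 0.0829). With no replicates, this compares the libraries and says nothing of the spread between cultures.

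miR-320-3p fell, with a fold change of 0.776 (95% interval 0.768 to 0.784), and the p-value of the exact binomial test was too small to be stored as a number. The ratio for miR-877-5p was 0.921 (95% interval 0.859 to 0.987, adjusted p = 0.0436 in the exact binomial test with Benjamini-Hochberg adjustment over the 510 arms). These 2 of the 6 arms passed an adjusted p of 0.05, beside 43.9% of all detected arms.

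The other 4 arms did not pass. For miR-1981-5p it was 0.967 (95% interval 0.927 to 1.01, exact test, adjusted p = 0.201) and for miR-702-5p 0.914 (95% interval 0.646 to 1.29). miR-484-5p had a fold change of 1.01 (95% interval 0.794 to 1.28) and miR-1224-5p one of 1.04 (95% interval 0.748 to 1.46). For miR-702-5p, miR-484-5p and miR-1224-5p a change inside these intervals was not detectable at this depth.

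In these fold changes 4 of the 6 arms were below the control, beside 67.5% of all detected arms. The median log2 fold change of the 6 arms was -0.084, and that of the other 504 detected arms was -0.170, with quartiles of -0.406 and 0.064. Of the other arms, 27.6% had a fold change below that of miR-320-3p. The log2 fold change of miR-320-3p, -0.37, thus lay within the middle range of the other arms, and those of the remaining 5 arms lay between -0.13 and 0.06.

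The direction depended on the denominator. The median log2 fold change of all detected arms was -0.164 per clean read, 0.033 per read that matched a hairpin, and 0.112 per read of 20 to 24 nt. Per hairpin read, 1 of the 6 arms was below the control instead of 4, and of all arms past 1.5-fold 51 were higher and 27 lower, against 32 higher and 67 lower per clean read. miR-320-3p was the arm that stayed below the control, with fold changes of 0.890 per hairpin read (95% interval 0.880 to 0.899) and 0.940 per read of 20 to 24 nt (95% interval 0.930 to 0.9499). With the size factors of DESeq2, which center the median of all arms at 0, its fold change was 0.870 (95% interval 0.860 to 0.879).

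Of the 4 mirtrons 3 crossed 1, while miR-1224-5p was above 1 per clean read and under each of these denominators. For miR-1981-5p the value was 1.11 per hairpin read (95% interval 1.06 to 1.16, exact binomial test, adjusted p = 6.60e-06) and 1.08 with the size factors (95% interval 1.04 to 1.13). miR-877-5p had 1.06 per hairpin read (95% interval 0.985 to 1.13) and 1.03 with the size factors (95% interval 0.962 to 1.11), so that its call per clean read was lost. Per read of 20 to 24 nt it was above the control and passed the test, with 1.11 (95% interval 1.04 to 1.19, exact binomial test, adjusted p = 0.00605). Per clean read, the call of miR-877-5p was also lost with identical tags only (exact binomial test, adjusted p = 0.110), with tags of 21 nt or more (adjusted p = 0.119) and with all arms tested without a filter (adjusted p = 0.0951). miR-702-5p had 1.05 per hairpin read (95% interval 0.741 to 1.48).

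**Figure D4:**
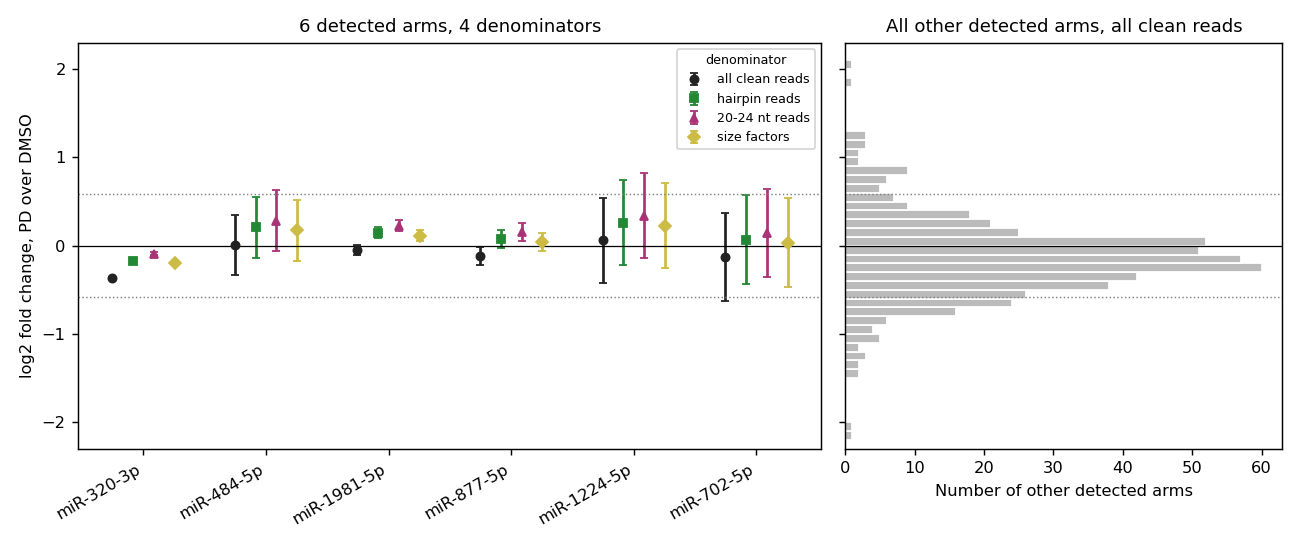
Left, log2 fold change of the PD over the DMSO library for the 6 detected arms with 95% intervals from read counts, under 4 denominators. Right, the number of the other 504 detected arms at each log2 fold change per clean read. Dotted lines mark 1.5-fold, which no point of the 6 arms passes, and miR-320-3p alone stays below 0 under each denominator.

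A ratio of the fold changes of 2 arms does not depend on the denominator. Of the 15 pairs of detected arms, 3 had an unadjusted 95% interval that excluded 1, and miR-320-3p was in each of them. The fold change of miR-1981-5p was 1.25 times that of miR-320-3p (95% interval 1.19 to 1.30). The fold change of miR-320-3p was 0.843 times that of miR-877-5p (95% interval 0.786 to 0.904) and 0.771 times that of miR-484-5p (95% interval 0.612 to 0.971). By these unadjusted intervals the 2 capped hairpins differed from each other in these libraries when only perfectly matching reads were counted. With reads carrying extra 3′ bases counted too (described below), miR-484-5p had a fold change of 0.953 (95% interval 0.770 to 1.18). That interval held the 0.796 of miR-320-3p under the same count.

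Among the 4 mirtrons no pair was separated. The fold change of miR-1981-5p was 1.05 times that of miR-877-5p (95% interval 0.969 to 1.14). The other mirtron pairs had wider intervals, such as 0.719 to 1.81 for miR-1224-5p against miR-702-5p, and a difference smaller than that was not detectable at this depth.

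The 11 other arms within 2 times the control reads of miR-320-3p, either way, had similar precision. Their fold changes per clean read ran from 0.607 for miR-101b-3p to 1.13 for miR-140-3p, with 0.825 for miR-103-3p and 0.714 for miR-25-3p. The fold change of miR-320-3p lay inside this range.

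Reads with extra bases at the 3′ end that the hairpin does not encode are not in the counts above. Such tails are added to miRNAs and their precursors by terminal nucleotidyltransferases. Tails of 1 to 3 bases after a perfect match of at least 18 nt were counted, and shares are of the tailed and untailed reads of an arm. An added base equal to the next base of the hairpin cannot be told from it and counted as untailed. The share of each kind of tail thus also depends on the sequence of the hairpin. Tails of C or G bases, which measure the background, were at most 1.48% of the reads of any of the 6 detected arms in either library, the value of miR-877-5p in PD. Tails with more than 1 kind of base were in the total but were not tested. Their share ran from 0.591% for miR-1981-5p in the control to 10% for miR-702-5p in PD.

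Uridine tails were common on these arms. In miR-320-3p their share was 18.02% in the control (95% Wilson interval 17.8 to 18.3) and 19.6% in PD (19.3 to 19.9). Of the mirtrons, miR-702-5p had 25.2% and 27.5%, miR-1224-5p 21.4% and 25.2%, miR-877-5p 13.2% and 15.5%, and miR-1981-5p 4.59% and 4.51%. miR-484-5p had 9.77% and 8.74%. The median over 481 other arms was 1.98% in the control and 2.78% in the PD library, with upper quartiles of 6.90% and 7.53%. Of these arms, 8.52% had more uridine tails than miR-320-3p in the control, 5.20% more than miR-702-5p and 33.7% more than miR-1981-5p.

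Except in miR-484-5p in the control, most uridine tails were of 1 base. In miR-484-5p 6 of 17 uridine-tailed reads in the control and 9 of 16 in the PD library had 1 uridine. In miR-1224-5p the share was 60% and 66.7%. Of the uridine-tailed reads of miR-320-3p, 86.3% in the control and 85.4% in the PD library had 1 uridine, and of those of miR-877-5p 84.2% and 82.8%. The most frequent uridine-tailed tags of the mirtrons, with the added uridine in capitals, were as follows.
miR-877-5p: guagaggagauggcgcaggggacaU
miR-702-5p: gugaguggggugguuggcaugU
miR-1224-5p: gugaggacuggggagguggaggguU
miR-1981-5p: guaaaggcugggcuuagacgugU
The tailed tag of miR-702-5p had 25 reads in the control and 25 in the PD library, that of miR-877-5p had 117 and 134, that of miR-1224-5p 10 and 18, and that of miR-1981-5p 71 and 91. In miR-877-5p, miR-702-5p and miR-1224-5p the uridine followed the most frequent tag printed above, and in miR-1981-5p it followed a form 1 base shorter.

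The share of uridine tails differed between the libraries in 1 of the 6 arms, beside 3.7% of 487 arms tested. This was miR-320-3p, where 16661 of 92455 reads in the control and 16017 of 81720 in the PD library were tailed (Fisher's exact test, adjusted p = 3.69e-15). The size of the difference was 1.58 percentage points. With its large number of reads, miR-320-3p can pass at a difference that arms with fewer reads cannot show. miR-877-5p differed by more, but did not pass (Fisher's exact test, adjusted p = 0.320).

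Adenosine tails were less frequent. In miR-320-3p their share was 0.395% in the control and 0.450% in PD, below the 2.48% and 2.74% that were the medians of the other arms. miR-877-5p had 7.49% and 7.36%, miR-1981-5p 1.51% and 2.12%, and miR-484-5p 4.02% and 3.83%. miR-1224-5p had 8.55% in the control and 4.58% in PD, from 10 and 6 reads. In miR-702-5p the share was 10.4% in the control (95% Wilson interval 6.07 to 17.4) and 4.17% in PD, from 12 and 5 reads. The share of adenosine tails differed in 0 of the 6 arms by Fisher's exact test with Benjamini-Hochberg adjustment, beside 3.49% of the 487 arms tested. By this count miR-320-3p had many uridine and few adenosine tails. Whether the hairpin bases after its mature form hide added adenosines was not tested, so its low adenosine share may be an undercount. The shares of miR-877-5p, miR-702-5p, miR-1224-5p and miR-484-5p were above the medians of the other arms for both kinds of tail.

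**Figure D5:**
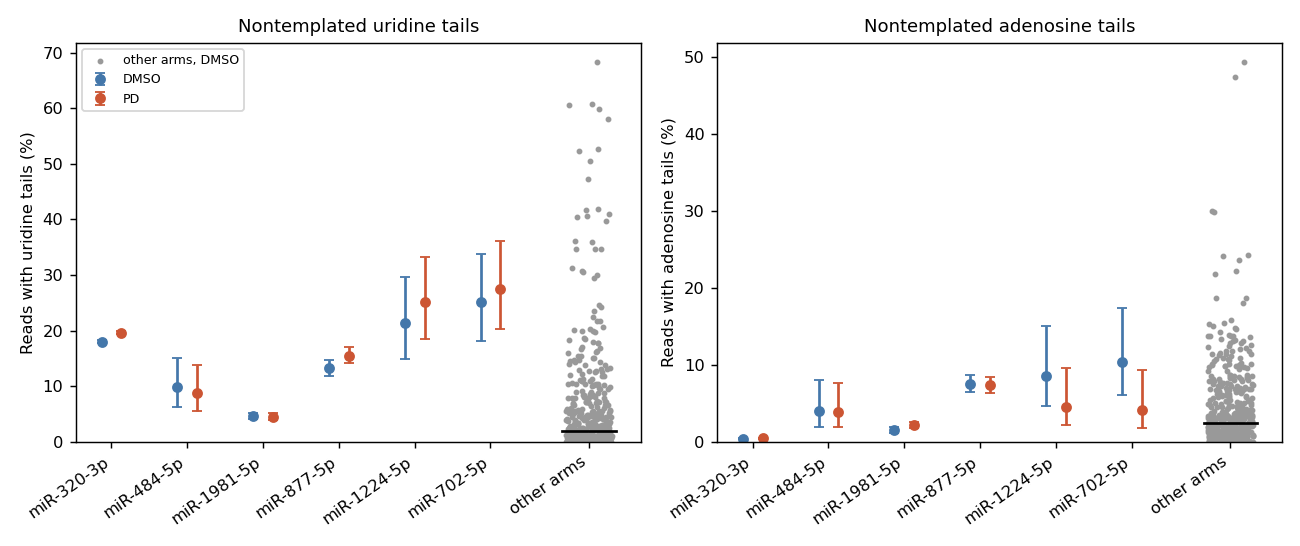
Percent of the reads of each arm with nontemplated uridine (left) or adenosine (right) tails of 1 to 3 bases in the DMSO and PD libraries, with 95% Wilson intervals. Grey points are the 481 other arms in the DMSO library, with their median as a line, 1.98% for uridine and 2.48% for adenosine, and all 6 arms lie above the line for uridine.

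When the tailed reads were added to the counts, miR-320-3p had 92469 reads in the control and 81731 in the PD library, with a fold change of 0.796 (95% interval 0.789 to 0.804). That of miR-877-5p became 0.978 (95% interval 0.923 to 1.04) and no longer passed the test (exact binomial test, adjusted p = 0.610).

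A further list held other hairpins that are known or proposed to skip Drosha or Dicer, among them Mir664, which lies in a snoRNA, Mir1983, which lies in a tRNA, and Mir451a, which is cut by Argonaute in place of Dicer. Of its 19 annotated hairpins, 9 arms were detected, with a median log2 fold change of -0.215 per clean read. Of these 9 arms, 1 changed by 1.5-fold, beside the 19.4% of all detected arms. It was miR-344-3p, with 49 reads in the control, 34 in PD and a ratio of 0.625 (95% interval 0.391 to 0.988, exact binomial test, adjusted p = 0.0764).

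Of the same list, 2 arms passed an adjusted p of 0.05, beside 43.9% of all. miR-1839-5p had 17329 reads in the control, 15601 in the PD library and a fold change of 0.811 (95% interval 0.794 to 0.829). miR-668-3p had 155 and 126 reads and a ratio of 0.732 (95% interval 0.574 to 0.933, exact binomial test, adjusted p = 0.0266). miR-1983-3p, with 1113 and 1237 reads, had a fold change of 1.00, and miR-664-5p, with 257 and 287 reads, one of 1.01. miR-451a-5p had 7 reads in the control and 20 in the PD library and was below 1 RPM in both.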

How the data were processed

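The authors gel-purified small RNA, sequenced it, discarded reads of low quality, adapters, contaminants and anything shorter than 18 nt, and deposited raw counts per distinct tag, without alignment. The last line of each file, a total without a tag, was left out. The submitters' processing notes name mm9; hairpins and coordinates here are those of GENCODE M21 on GRCm38, folded with ViennaRNA 2.7.2 to set the arms. The most frequent tag of an arm was taken as its mature form, and tags sharing 16 nt or more with it were counted, with Python 3.11.15, numpy 2.4.6 and SciPy 1.17.1. No tag counted for an arm of the 6 hairpins matched another GENCODE transcript. The models of edgeR and DESeq2 need replicates and were not run, and edgeR 4.0.16 and DESeq2 1.42.0 in R 4.3.3 gave scaling factors only. Reads were not deduplicated, so intervals cover counting only. Arm shares and tails were tested in arms with at least 20 reads in each library. The text names both arms of the 6 hairpins, the further list of noncanonical hairpins, and detected arms with a shared seed. Members and lists were chosen with earlier results of these data known. Arm pairs, abundance neighbours, read lengths and counts with tails were added after seeing the data. The scripts were tested on simulated data.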

Additional observations from a re-analysis of the deposited data

How the results depend on the processing

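No paired analysis was possible because each treatment had 1 library. None of the 6 arms reached 1.5-fold under any denominator tried, nor at a 2-fold threshold or with the test as a further criterion. With only tags identical to the mature form 1 arm did, miR-1224-5p with 21 and 41 reads, and without a filter 3 of 11 arms did, all with under 10 reads in each library. Over all arms 99 changed by 1.5-fold, 26 by 2-fold, 35 at 10 RPM or more, and 558 without a filter.

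The median log2 fold change of the 6 arms, -0.084 per clean read, was 0.113 per hairpin read, 0.192 per read of 20 to 24 nt, 0.077 with TMM, 0.080 with DESeq2 size factors and 0.061 with identical tags. In that order the fold change turned above 1 for miR-1981-5p (1.11, 1.17, 1.08, 1.08 and 1.097) and miR-702-5p (1.05, 1.11, 1.02, 1.02 and 1.02), and, without identical tags, for miR-877-5p (1.06, 1.11, 1.03 and 1.03). With tails counted, miR-484-5p was at 0.953. The cause was not tested. miR-320-3p stayed below the control under every alternative, from 0.753 to 0.940. Arm share and tail calls were the same under their alternatives. Levels under 10 RPM limit miR-484-5p, miR-702-5p and miR-1224-5p.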
